A study of Mus musculus with 12 samples.

Results

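The lysosomal proteases called cathepsins, and Gpnmb, were described in mouse embryonic fibroblasts (MEFs), connective tissue cells grown from embryos, that differ in SIRT1, a deacetylase of proteins that uses NAD. The group called KO here is homozygous for the SIRT1 mutation per the labels, Het is heterozygous, and WT is wild type. Each genotype has 4 arrays of 1 colour (Cy3), numbered 2, 3, 4 and 5 for KO and Het and 1, 2, 3 and 5 for WT. All cells are female per the labels, received no special treatment, and grew with 10% serum, 25 mM glucose and 4 mM glutamine. The labels give neither the age of the embryos, the strain, the deleted part of Sirt1, nor whether replicates were separate cultures, so p-values cover only the spread between these arrays. Members were the non-control probes that carry 1 of 10 gene names, Ctsa, Ctsb, Ctsc, Ctsd, Ctsh, Ctsk, Ctsl, Ctss, Ctsz and Gpnmb. They came to 13 of 41174 probes, for 9 of the 27962 gene names on the array, as 1 name (Ctsa) is not used there. The genes were picked with differences between these genotypes already known. Fold changes and adjusted p-values of members are therefore given as a description, and nothing is supported with them.

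Cathepsins are made as inactive precursors, carried to the lysosome by mannose 6-phosphate receptors, and cut into active enzymes in its acid interior. Cathepsins B, C, H, K, L, S and Z are cysteine proteases of the papain family, cathepsin D is an aspartic protease, and cathepsin A is a serine carboxypeptidase that also shields other lysosomal enzymes. Cathepsin K is best known for digesting collagen in osteoclasts, and fibroblasts also make it. Cathepsin C trims dipeptides and activates serine proteases of immune cells. Gpnmb is a transmembrane glycoprotein of melanosomes and lysosomes, known as a target of the transcription factor MITF and as a gene induced in macrophages with overloaded lysosomes. The factors MITF, TFEB and TFE3 bind CACGTG-like sites in promoters of lysosomal genes.

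Promoter windows from RefSeq (build GRCm38.p6), from 250 bases before to 50 after the annotated start, were found for 8 of the 10 named genes, and Ctsb and Ctsh are named only. The 250 bases before the start are shown for the 3 genes with the largest differences between genotypes (Gpnmb, Ctsk and Ctsc) and for Ctsd and Ctsl, which hold matches there. Capitals mark each match to CACGTG or TCACGTG on either strand.
Gpnmb promoter, chr6:49036268-49036517, plus strand: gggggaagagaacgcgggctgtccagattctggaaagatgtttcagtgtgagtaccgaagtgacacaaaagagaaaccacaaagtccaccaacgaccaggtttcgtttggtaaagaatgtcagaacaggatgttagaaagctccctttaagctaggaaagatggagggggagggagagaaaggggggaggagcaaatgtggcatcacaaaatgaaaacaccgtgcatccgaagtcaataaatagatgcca
Ctsk promoter, chr3:95498960-95499209, plus strand: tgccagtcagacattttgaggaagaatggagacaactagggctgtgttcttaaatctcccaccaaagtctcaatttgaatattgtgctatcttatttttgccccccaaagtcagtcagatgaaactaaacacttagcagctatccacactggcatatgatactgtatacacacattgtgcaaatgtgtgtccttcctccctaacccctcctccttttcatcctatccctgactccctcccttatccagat
Ctsc promoter, chr7:88277835-88278084, plus strand: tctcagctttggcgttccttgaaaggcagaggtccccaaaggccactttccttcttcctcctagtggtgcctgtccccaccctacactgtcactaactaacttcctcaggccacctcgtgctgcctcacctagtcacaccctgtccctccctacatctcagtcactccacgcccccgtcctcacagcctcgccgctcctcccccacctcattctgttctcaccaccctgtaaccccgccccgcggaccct
Ctsd promoter, chr7:142387828-142388077, minus strand: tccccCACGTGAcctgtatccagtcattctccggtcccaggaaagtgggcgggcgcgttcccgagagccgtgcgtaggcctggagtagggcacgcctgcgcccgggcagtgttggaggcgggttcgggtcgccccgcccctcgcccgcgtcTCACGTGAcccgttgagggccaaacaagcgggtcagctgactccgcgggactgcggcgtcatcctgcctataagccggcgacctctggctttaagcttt
Ctsl promoter, chr13:64370521-64370770, minus strand: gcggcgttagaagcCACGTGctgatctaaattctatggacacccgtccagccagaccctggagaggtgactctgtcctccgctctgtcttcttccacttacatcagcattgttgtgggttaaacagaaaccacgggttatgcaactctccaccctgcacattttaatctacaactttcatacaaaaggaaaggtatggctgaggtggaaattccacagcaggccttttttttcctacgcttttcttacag

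Searched on both strands over 300 bases, CACGTG was present in 2349 of 32851 windows (7.15%), TCACGTG, which contains it, in 3.77%, and CATGTG in 14.2%. CACGTG occurred 2 times for Ctsd, with its first base at −245 and −98 from the start, 2 times in 1 of the windows of Ctsa, at −12 and 5, and 1 time for Ctsl, at −236. Around the Ctsa sites and the Ctsd site at −98 TCACGTG lies on both strands, overlapping itself, and at the Ctsd site at −245 it lies on 1 strand. None of the 3 motifs was found in the windows of Gpnmb, Ctsk, Ctsc and Ctsz, and that of Ctss held only a CATGTG at 19. These matches are letters in a window, and binding was not measured.

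The probes are 60 bases long, with 35% to 55% G and C, and the longest run of bases shared between probes of different members was 8. Probe coordinates were taken from the deposited data (build mm7), for which no gene model was used, so exons and untranslated regions are not assigned. Gpnmb was read by probe 1 at chr6:49016437-49016496 and probe 2 at chr6:49017163-49017222, and Ctsc by 1 probe at chr7:84246990-84247049, all on the plus strand. For Ctsk and for probe 2 of Ctsd the 60 bases are spread over 245 and 154 bases of genome, so these probes cross a splice junction and read spliced RNA. Both are shown for that reason.
Ctsk probe, chr3:95380674-95380918, plus strand: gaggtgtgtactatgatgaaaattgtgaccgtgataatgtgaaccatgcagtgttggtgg
Ctsd probe, chr7:138804003-138804156, minus strand: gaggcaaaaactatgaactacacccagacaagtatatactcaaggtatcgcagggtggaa

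Levels are log2 signals from which the 75th percentile of that array's non-control probes was subtracted, so a level of 0 equals that percentile. Levels of different probes are not compared with each other. Differences are log2 fold changes from a limma fit of all 12 arrays with their standard error (SE), and a probe was called at a Benjamini-Hochberg adjusted p under 0.05 over the 25591 probes tested. A probe was tested if it was well above background on all arrays of at least 1 genotype, and 11 member probes of 8 genes passed. Probe 2 of Gpnmb and the probe of Ctss did not. The median difference over all tested probes was 0.04 for KO minus WT, 0.02 for Het minus WT and −0.0001 for KO minus Het. Without scaling it was 0.06, −0.21 and 0.25, so every difference is relative to the scaling.

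Some arrays stood apart. Arrays of the same genotype correlated at 0.923 to 0.970 over probes where one was numbered 3, and at 0.969 to 0.998 otherwise. On the array labelled WT 3 a probe of Xist, transcribed from the inactive X chromosome, had a level of −2.94, against 1.66 to 3.42 on the other 11 arrays, which goes against the female label. A probe of the Y-linked Ddx3y was at 1.04 on WT 3 and at −10.16 to −4.35 on the other 11 arrays, and its second probe was at −3.30 on WT 3, −4.80 on WT 2 and −10.29 to −7.20 on the rest. The Y-linked Eif2s3y was at −5.02 on KO 3, −3.92 on Het 3, 0.92 on WT 3 and −10.06 to −6.08 on the rest, and the first Ddx3y probe was likewise next highest on Het 3 and KO 3 after WT 3. The targeted gene was lower in KO cells at 1 of its 2 probes, with KO minus WT at −0.83 (SE 0.17, limma adjusted p = 0.0361) and KO minus Het at −0.84 (limma adjusted p = 0.0445), and at the other probe KO minus WT was 0.02 (limma adjusted p = 0.982). With slide as a block the first probe was not called (limma adjusted p 0.179 for KO minus WT and 0.166 for KO minus Het), nor without most single arrays (KO minus WT kept in 3 of 12 fits, KO minus Het in 3). All 14 fibroblast markers listed were well above background on every array. Among them Thy1, a surface protein of many fibroblasts, was lower in KO than in WT cells (−3.47, limma adjusted p = 0.000965) and than in Het cells (−2.16, 0.0104), and decorin (Dcn) was lower in KO than in Het cells (−3.21, 0.0191). No other marker of the 14 was called in these comparisons, where 1.5% and 0.797% of all tested probes were called. Signs were mixed, with 5 higher and 9 lower for KO minus WT, and 3 and 11 for KO minus Het. The arrays lay on 4 slides and were scanned on 1 day. Slides 3 and 4 held all 3 genotypes, slide 1 held KO 3, Het 3 and Het 4, and slide 2 held WT 1 alone. Slide 3 held KO 2, Het 2, WT 2 and WT 3, and slide 4 held KO 4, KO 5, Het 5 and WT 5. Every difference within a slide thus rests on 1 or 2 arrays per genotype.

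In KO cells Gpnmb stood 16.4-fold below WT and 14.4-fold below Het, Ctsk was lower than in Het, and Ctsc was higher than in Het. The remaining cathepsins differed by under 2-fold between genotypes and none of their probes was called. Against WT, 1 of 11 member probes was called in KO cells, Gpnmb, and it was lower, where 1.5% of all tested probes were called, 0.766% as higher and 0.731% as lower. In Het cells 0 of 11 were called against WT, where 1.09% of all were, and 3 of 11 had an unadjusted p under 0.05, where 15.9% of all did. That count was 3 for KO minus WT and 5 for KO minus Het, where 16.3% and 11.3% of all tested probes had one. Between KO and Het cells 3 of 11 were called, Ctsc as higher and Ctsk and Gpnmb as lower, where 0.797% of all probes were called, 0.512% as higher and 0.285% as lower. As the members were picked on these contrasts, nothing is read from those counts. Without the 3 arrays numbered 3, 12 member probes were tested and 4 were called for KO minus WT (both Gpnmb probes and Ctsk lower, Ctsc higher), 3 for Het minus WT (Ctsk and Ctsl higher, Ctsc lower) and 4 for KO minus Het (the same 4 as for KO minus WT, which shares the KO arrays), where 15.4%, 10.2% and 7.83% of all tested probes were called. Probe 2 of Gpnmb entered that fit only through the Het arrays. It was not well above background on KO 2, KO 4, KO 5 and WT 2, so nothing is read from its calls. The plot of differences sets the 3 comparisons side by side.

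**Figure D1:**
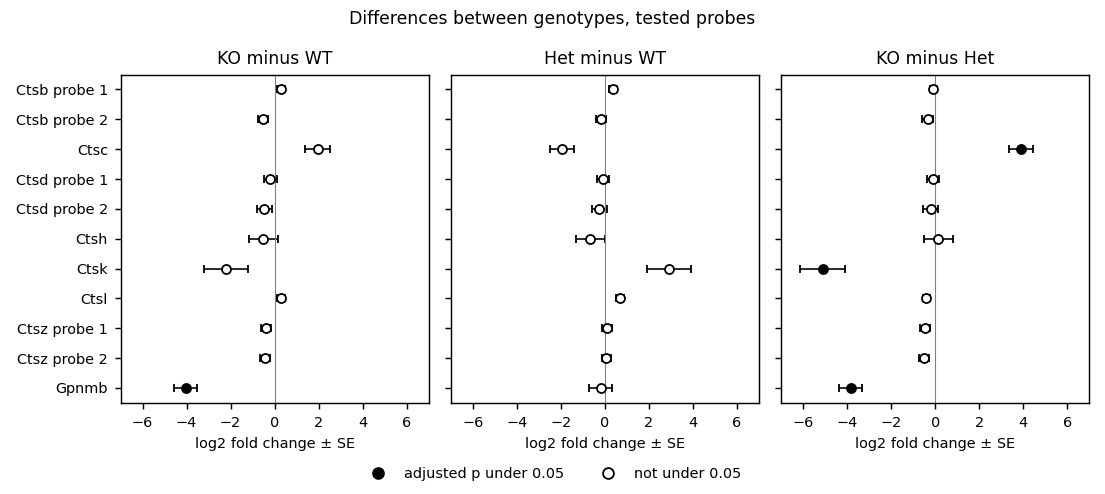
Log2 fold change ± SE of the 11 tested member probes for KO minus WT, Het minus WT and KO minus Het, from limma on 4 arrays per genotype; filled points have an adjusted p under 0.05 over all tested probes. Gpnmb lies near −4 for KO minus WT and KO minus Het, Ctsk and Ctsc lie on opposite sides in all 3 panels, and the probes of the other genes stay within 1 of 0.

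Gpnmb was lower in KO cells than in both other genotypes. Probe 1 was at −0.93, −1.87, −1.32 and −1.49 on KO arrays 2, 3, 4 and 5, at 3.23, 1.15, 2.63 and 2.76 on Het arrays 2, 3, 4 and 5, and at 3.26, 1.35, 3.68 and 2.25 on WT arrays 1, 2, 3 and 5. All 4 KO arrays lay below every Het and WT array, with a gap of 2.28 to WT and 2.09 to Het, while Het and WT overlapped. The means were −1.40 ± 0.39 in KO, 2.44 ± 0.90 in Het and 2.64 ± 1.05 in WT cells (SD, n = 4 each). KO cells held 6.09% of the WT signal, a difference of −4.04 (SE 0.53, limma adjusted p = 0.00601), and, set against Het cells, 6.95%, a difference of −3.85 (SE 0.53, limma adjusted p = 0.00988). Among all tested probes, this was the 32nd largest decrease for KO minus WT and the 33rd for KO minus Het. Het and WT cells differed by −0.19 (SE 0.53, limma adjusted p = 0.893), with groups that overlapped, and the sign of this difference was not stable. Het minus WT was 0.55 with slide as a block (limma adjusted p = 0.788), 0.59 without the arrays numbered 3 (0.441), 0.24 without Het 3 (0.856), 0.16 without WT 3 (0.892) and 0.02 without WT 1 (0.992), not called in any of these.

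The Gpnmb difference was present on each slide that allows it. With slide as a block KO minus WT was −3.48 and no longer called (limma adjusted p = 0.0554), and KO minus Het was −4.03 (limma adjusted p = 0.0226). Within slide 3 KO minus WT was −3.45 and within slide 4 it was −3.65, and KO minus Het was −3.76, −4.16 and −4.17 within slides 1, 3 and 4. Without WT 3 KO minus WT was −3.69 (limma adjusted p = 0.00372), and without all arrays numbered 3 it was −3.53 (limma adjusted p = 0.00121). Leaving out any 1 array kept the call in both comparisons.

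Probe 2 of Gpnmb, 666 bases away, was dim. It was well above background on 0 of 4 KO, 3 of 4 Het and 3 of 4 WT arrays. Its levels were −8.41, −8.49, −8.72 and −8.95 on KO arrays, −4.63, −7.39, −5.02 and −5.23 on Het arrays, and −4.84, −6.53, −4.43 and −4.76 on WT arrays, in the same order of numbers. The KO arrays again lay below all others, and the arrays Het 3 and WT 2, lowest in their groups at probe 1, were also lowest here and not well above background. A KO signal not well above background gives no exact fold. With each KO array set to at least its dimmest well-above-background signal of any probe, WT stood 3.84-fold and Het 2.85-fold above KO. That signal is not a detection limit for this probe, and the WT and Het means include WT 2 and Het 3. These values are therefore not strict bounds.

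Ctsk, the collagen-digesting cathepsin K, was near-constant in Het cells and widely spread in the other genotypes. It was at −5.39, −1.73, −5.71 and −5.54 on KO arrays 2, 3, 4 and 5, at 0.51, 0.53, 0.52 and 0.54 on Het arrays 2, 3, 4 and 5, and at −0.10, −2.69, −4.97 and −1.82 on WT arrays 1, 2, 3 and 5. All Het arrays lay above every KO and WT array, and KO and WT overlapped since KO 3 was far above the other KO arrays and WT 3 far below the other WT arrays. The means were −4.59 ± 1.92 in KO, 0.53 ± 0.01 in Het and −2.39 ± 2.03 in WT cells (SD, n = 4 each). KO cells held 2.88% of the Het signal, a difference of −5.12 (SE 1.01, limma adjusted p = 0.0426), the 8th largest decrease among all tested probes. The signals of KO 2, KO 4 and KO 5 were only 65, 44 and 50, though flagged as well above background. With another background correction the difference was −3.72, so its size rests in part on dim KO signals. KO minus WT was −2.20 (SE 1.01, limma adjusted p = 0.309) and Het minus WT 2.92 (SE 1.01, limma adjusted p = 0.194).

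The arrays numbered 3 decided much of what Ctsk showed. KO 3 lay 3.24 above WT 3, against the direction of the group means. Without the 3 arrays of that number KO minus WT was −4.01 (limma adjusted p = 0.00192), Het minus WT was 2.06 (limma adjusted p = 0.0439) and KO minus Het was −6.07 (limma adjusted p = 0.0003), and without WT 3 alone KO minus WT was −3.06 (limma adjusted p = 0.0608). The call of KO minus Het was also fragile with all arrays of that number kept. It was lost with slide as a block (−4.76, limma adjusted p = 0.0669), with another background correction (−3.72, 0.0712) and with no filter on dim probes (0.0917), and it was kept in 4 of 12 fits that each left out 1 array. It was lost without KO 2, KO 4, KO 5, Het 2, Het 4, Het 5, WT 2 or WT 5 (limma adjusted p 0.0661 to 0.162). Within slides 1, 3 and 4 KO minus Het was −2.25, −5.90 and −6.17, and within slides 3 and 4 KO minus WT was −1.56 and −3.81.

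Ctsc, the dipeptidyl peptidase cathepsin C, ran the other way from Ctsk. It was at −0.10, −1.06, −0.09 and −0.12 on KO arrays 2, 3, 4 and 5, at −5.78, −2.43, −4.44 and −4.33 on Het arrays 2, 3, 4 and 5, and at −1.79, −2.51, −2.62 and −2.24 on WT arrays 1, 2, 3 and 5. The KO arrays lay above all others, with KO 3 below the other KO arrays, and Het 3 fell among the WT arrays. Het 2 was not well above background. The means were −0.34 ± 0.48 in KO, −4.25 ± 1.38 in Het and −2.29 ± 0.37 in WT cells (SD, n = 4 each). KO cells stood 15.0-fold above Het cells, a difference of 3.90 (SE 0.55, limma adjusted p = 0.0105), part of which rests on a Het signal near background. The difference was 3.10 with another background correction (limma adjusted p = 0.00511) and 4.51 without Het 3 (0.000336), and from 3.39 to 4.51 over all fits that each left out 1 array. KO minus WT was 1.95 (SE 0.55, limma adjusted p = 0.114), without overlap, as for 8.65% of all tested probes, and Het minus WT −1.95 (SE 0.55, limma adjusted p = 0.12).

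Without the arrays numbered 3 all 3 comparisons of Ctsc were called, at 2.08 for KO minus WT (limma adjusted p = 0.00686), −2.67 for Het minus WT (0.00308) and 4.75 for KO minus Het (0.000164). Without WT 3 alone KO minus WT was 1.84 (limma adjusted p = 0.0888). With slide as a block KO minus Het was 3.97 (limma adjusted p = 0.0379), and within slides 1, 3 and 4 it was 2.37, 5.69 and 4.23. Leaving out any 1 array kept the call of KO minus Het. The plot of Gpnmb, Ctsk and Ctsc by array shows where these arrays fell.

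**Figure D2:**
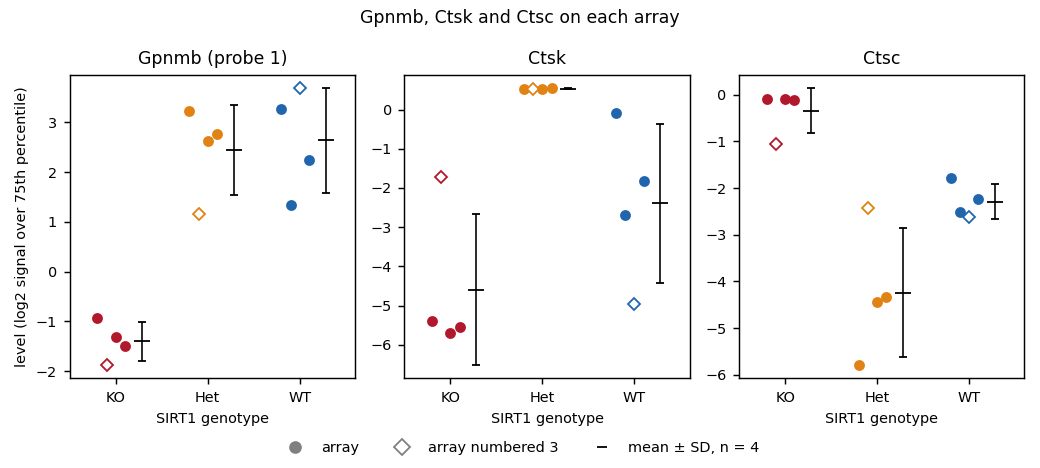
Level (log2 signal over the array's 75th percentile) of Gpnmb probe 1, Ctsk and Ctsc on each array by SIRT1 genotype; diamonds are arrays numbered 3, bars are mean ± SD of 4 arrays. Gpnmb is low on all 4 KO arrays, the 4 Het arrays of Ctsk lie between 0.51 and 0.54, and Ctsc is highest on KO and lowest on 3 of the 4 Het arrays.

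Across arrays the members did not move as 1 block. Pearson's r between Gpnmb and Ctsk was 0.57 over the 12 arrays and 0.97 over the 9 not numbered 3, and between Ctsc and both it was negative, −0.78 with Gpnmb and −0.76 with Ctsk over 12 arrays. These values share the genotype differences and the scaling and are a description only.

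Ctsl, encoding the endopeptidase cathepsin L, was 1.61-fold higher in Het than in WT cells without a call. It was at 5.99, 6.25, 6.28 and 6.24 on KO arrays 2, 3, 4 and 5, at 6.93, 6.17, 6.66 and 6.60 on Het arrays 2, 3, 4 and 5, and at 5.99, 5.81, 5.83 and 5.99 on WT arrays 1, 2, 3 and 5. Every Het array lay above every WT array, while KO overlapped both, its lowest array touching the highest WT array. Het minus WT was 0.69 (SE 0.17, limma adjusted p = 0.0803), and it was called without Het 3, without WT 3 (0.66, limma adjusted p = 0.0466) and without all arrays numbered 3 (0.80, limma adjusted p = 0.0128). KO minus WT was 0.29 (limma adjusted p = 0.438) and KO minus Het −0.40 (limma adjusted p = 0.395).

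Ctsz, encoding the carboxypeptidase cathepsin Z, was read by probes that gave nearly the same picture. Probe 1 was at 4.17, 3.91, 4.12 and 4.10 on KO arrays 2, 3, 4 and 5, at 4.76, 4.84, 4.24 and 4.34 on Het arrays 2, 3, 4 and 5, and at 4.70, 4.08, 4.97 and 4.07 on WT arrays 1, 2, 3 and 5. KO arrays were tightly grouped below all Het arrays, and WT arrays overlapped both, with WT 3 above every Het array at either probe. KO minus Het was −0.47 at probe 1 (SE 0.23, limma adjusted p = 0.471) and −0.51 at probe 2 (SE 0.22, limma adjusted p = 0.397), without overlap at either, where the groups of 9.93% of all tested probes did not overlap. KO minus WT was −0.38 and −0.45, with overlap.

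Ctsd, encoding the aspartic protease cathepsin D, did not separate the genotypes. Probe 1 averaged 5.06 ± 0.23 in KO, 5.16 ± 0.43 in Het and 5.26 ± 0.55 in WT cells (SD, n = 4 each), and the junction-crossing probe 2 averaged 2.86 ± 0.25 in KO, 3.07 ± 0.44 in Het and 3.33 ± 0.74 in WT cells. All groups overlapped, and KO minus WT was −0.20 (limma adjusted p = 0.803) and −0.47 (limma adjusted p = 0.546). With the replicate number as a block it was 0.02 at probe 1. In each genotype the array numbered 3 was the highest at both probes.

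Ctsh, encoding the aminopeptidase cathepsin H, was lowest on the arrays numbered 3 in all genotypes, at −0.80 on KO 3, −1.16 on Het 3 and −1.47 on WT 3. The other arrays lay at 0.24 to 0.52 in KO, 0.30 to 0.36 in Het and 0.50 to 2.11 in WT cells. KO minus WT was −0.52 (SE 0.66, limma adjusted p = 0.768), and −0.92 without the arrays numbered 3 (limma adjusted p = 0.108), with Het minus WT at −0.67 (limma adjusted p = 0.664) and −0.99 (0.108). With slide as a block Het minus WT was 0.15.

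The probes of Ctsb, encoding cathepsin B, lie 2165 bases apart and disagreed. Probe 1 averaged 5.29 ± 0.24 in KO, 5.37 ± 0.06 in Het and 5.01 ± 0.27 in WT cells, and probe 2 averaged −1.84 ± 0.20 in KO, −1.49 ± 0.27 in Het and −1.31 ± 0.46 in WT cells (SD, n = 4 each). KO minus WT was 0.28 at probe 1 (SE 0.17, limma adjusted p = 0.462) and −0.53 at probe 2 (SE 0.23, limma adjusted p = 0.28), opposite in sign and not called at either. Het minus WT at probe 1 was 0.36 without overlap (SE 0.17, limma adjusted p = 0.322), and 8.68% of all tested probes did not overlap in that comparison. Over the 12 arrays Pearson's r between the probes was 0.13 for Ctsb, against 0.92 for Ctsd, 0.98 for Ctsz and 0.97 for Gpnmb. The plot of probe pairs shows this, and with no gene model of the build, which transcripts each Ctsb probe reads was not tested.

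**Figure D3:**
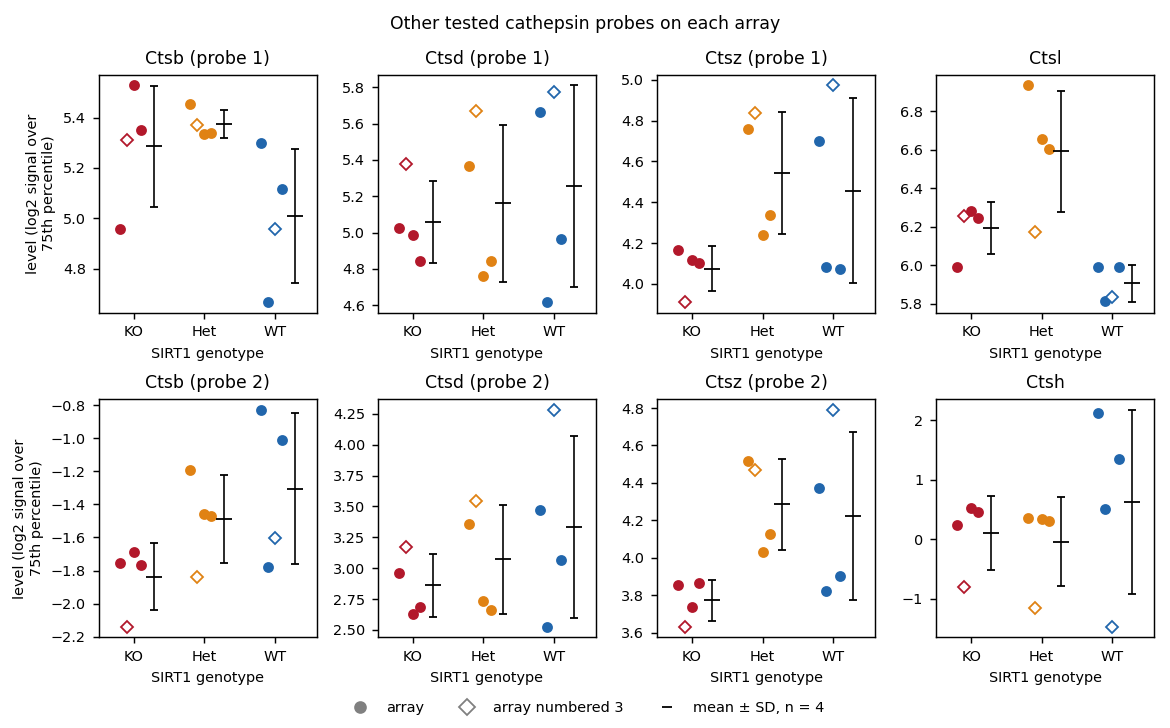
Level (log2 signal over the array's 75th percentile) of the other 8 tested cathepsin probes on each array by SIRT1 genotype; diamonds are arrays numbered 3, bars are mean ± SD of 4 arrays, and each panel has its own range. Het lies above WT for Ctsl, KO below Het for both Ctsz probes, and the arrays numbered 3 are lowest in each genotype for Ctsh and highest for both Ctsd probes.

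**Figure D4:**
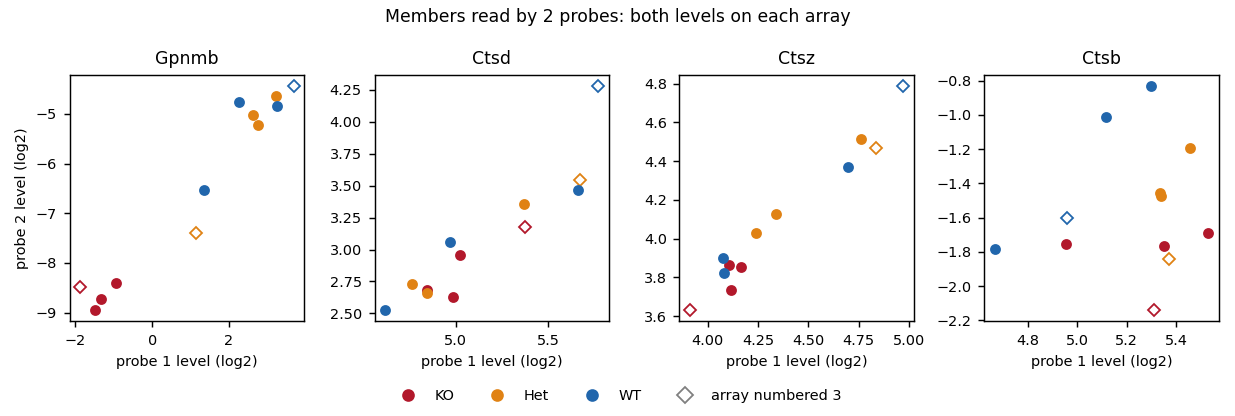
Level at probe 2 against probe 1 (log2 signal over the array's 75th percentile) on each of 12 arrays for the 4 members read by 2 probes; colours are genotypes and diamonds arrays numbered 3. Points follow a line for Gpnmb (r = 0.97), Ctsd (0.92) and Ctsz (0.98), and scatter for Ctsb (0.13).

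Ctss, the cathepsin S of antigen-presenting cells, was dim throughout and was not tested. It averaged −6.54 in KO, −6.96 in Het and −6.59 in WT cells and was well above background only on KO 4, KO 5, Het 5 and WT 5. These are the 4 arrays of slide 4, on which 76.8% to 77.8% of all probes were well above background, against 59.7% to 64.8% elsewhere. Its probe lies 49270 bases from that of Ctsk on chromosome 3. Ctsa, encoding cathepsin A, is on the array under the older name Ppgb, outside the rule. Its 3 probes gave KO minus WT differences of 0.25, 0.21 and 0.30, with limma adjusted p-values of 0.629, 0.715 and 0.622.

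Genes of the surrounding lysosomal system were counted in the same fit, with 1 probe per gene. Of 46 soluble lysosomal hydrolases and cofactors tested, 0 were called in any comparison, and 8 had an unadjusted p under 0.05 for KO minus WT, 3 for Het minus WT and 3 for KO minus Het. Among all tested probes 1.5%, 1.09% and 0.797% were called in these comparisons, in the same order, and 16.3%, 15.9% and 11.3% had an unadjusted p under 0.05. The hydrolases' median difference for KO minus WT was 0.11, against 0.04 over all tested probes. Creg1, a secreted and lysosomal glycoprotein, came closest for KO minus WT at 0.62 (SE 0.14, limma adjusted p = 0.0509). It was called, as 1 of 46, when the 75th percentile was taken over spots in place of probes (0.63, limma adjusted p = 0.0459), a setting that was run first and replaced with its results seen. It was also called, with the lower Aga, under quantile scaling. Pla2g15, the lysosomal phospholipase A2, followed at −0.57 (limma adjusted p = 0.105).

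The other lysosomal groups likewise had 0 calls in all 3 comparisons, among 23 lysosomal membrane proteins, 20 subunits of the proton-pumping V-ATPase, 17 genes that sort lysosomal enzymes, 11 MiT/TFE factors and their regulators, 27 autophagy genes, 10 cathepsin inhibitors and 5 other cathepsins. For KO minus WT their medians lay between −0.04 and 0.13, and 9 of these 113 genes had an unadjusted p under 0.05, as did 13 for Het minus WT and 10 for KO minus Het, beside the same 16.3%, 15.9% and 11.3% of all tested probes. The sorting receptor Sort1 had the lowest adjusted p among them for KO minus Het, at 1.10 (SE 0.25, limma adjusted p = 0.0776), and Atp6v0e2, a V-ATPase subunit, for Het minus WT, at −2.37 (SE 0.58, limma adjusted p = 0.0793). Under no scaling Sort1 was called. Mitf, which encodes the factor named above with Gpnmb as a known target, was not called in any comparison. It was at 0.71 for KO minus WT (limma adjusted p = 0.567), and 1.15 for KO minus Het (0.451). MITF protein and its activity were not measured, and a part of it in the Gpnmb levels was not tested.

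Without the arrays numbered 3 some of these groups did hold calls. For KO minus WT, where 15.4% of all tested probes were called, they were 7 of 46 hydrolases, 1 of 20 V-ATPase subunits and 1 of 17 sorting genes. A further 2 of 27 autophagy genes and 2 of 10 cathepsin inhibitors were called. Among 23 membrane proteins, 11 MiT/TFE genes and 5 other cathepsins 0 were called for KO minus WT. Of the hydrolases 2 were called for Het minus WT and 3 for KO minus Het. Outside the hydrolases and inhibitors, 1 V-ATPase subunit (Atp6v0e2), 2 sorting genes and 1 other cathepsin (Ctso) were called for Het minus WT. For KO minus Het they were 1 membrane protein (Laptm4b), 1 V-ATPase subunit (Atp6v0e2), 1 sorting gene (Sort1) and 1 MiT/TFE gene (Fnip2). Among the hydrolases Acp5, the tartrate-resistant acid phosphatase, was called as higher for KO minus WT, at 2.07 (limma adjusted p = 0.00555), and Aga, which cleaves sugar chains from asparagine, as lower, at −0.997 (limma adjusted p = 0.00564). Of the 10 cathepsin inhibitors 5 were called for KO minus Het, all higher, among them Ctla2a and Ctla2b, cysteine protease inhibitors, at 5.55 (limma adjusted p = 0.000228) and 4.97 (limma adjusted p = 0.000349). Ctla2a and Ctla2b are close relatives, and a probe of either may read both. The same 5 inhibitors were called for Het minus WT, which shares the Het arrays, 4 as lower and Serpina3g as higher. These genes were named after their values were seen, and the background share called in that fit was 15.4% for KO minus WT, 10.2% for Het minus WT and 7.83% for KO minus Het.

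**Figure D5:**
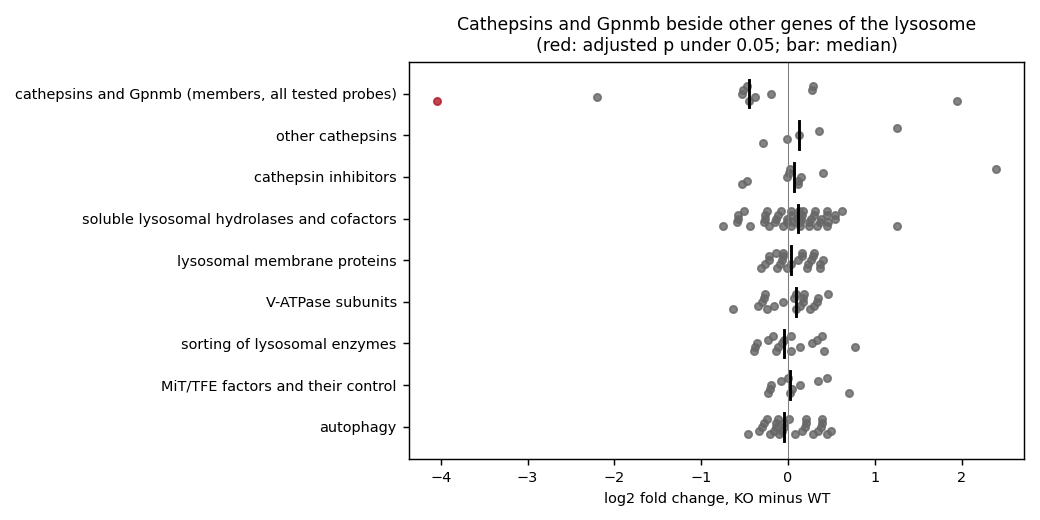
Log2 fold change for KO minus WT of the 11 tested member probes (top row) and of genes in 8 lysosomal lists, 1 probe per gene, with black bars at medians and red points at an adjusted p under 0.05 over all tested probes. Only Gpnmb is red, and the medians of the 8 lists lie between −0.04 and 0.13.

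Gpnmb, Ctsk, Ctss and Ctsc are also genes of macrophages, osteoclasts or melanocytes, and markers of those cells were counted beside them. Of 20 macrophage markers 8 to 14 were well above background on KO, 8 to 12 on Het and 5 to 12 on WT arrays, with a summed signal of 100.2% to 118% of the 75th percentile in KO, 96.5% to 202% in Het and 108% to 233% in WT cells. The highest counts were on the 4 arrays of slide 4 (KO 4, KO 5, Het 5 and WT 5), at 12 to 14, against 5 to 9 elsewhere. Counts of osteoclast markers were 7 to 8 on these arrays and 5 elsewhere. On slide 4 more of all probes were well above background. Slide and genotype were not separated in these counts, and the part of either was not tested. Of the macrophage markers Cd68, Fcer1g, Cd14 and C1qb were well above background on all 12 arrays, Csf1r on 4 KO, 4 Het and 2 WT arrays, and Ptprc, the pan-leukocyte surface protein, and Mrc1 on 0 of 12. Of 9 osteoclast markers 5 to 8 were well above background on KO, 5 to 8 on Het and 5 to 7 on WT arrays, and the sum was 106% to 179% in KO, 79.2% to 139% in Het and 86.0% to 91.9% in WT cells. Acp5, Oscar, Ocstamp, Itgb3 and Tnfrsf11a were well above background on all 12 arrays, and Atp6v0d2 on 0. Of 9 melanocyte markers 5 to 6 were well above background on KO, 5 to 6 on Het and 3 to 5 on WT arrays, and the sum was 29.4% to 40.9% in KO, 32.9% to 38.8% in Het and 25.7% to 40.1% in WT cells. Pmel, Sox10 and Slc45a2 were well above background on all 12 arrays, Mitf and Mlana on 4 KO, 4 Het and 3 WT arrays each, and Tyr, Tyrp1 and Kit on 0. Only 7 macrophage, 5 osteoclast and 5 melanocyte markers passed the background filter and were tested. None of these was called in the fit of all arrays, where 1.5%, 1.09% and 0.797% of all tested probes were called in the 3 comparisons. Acp5 of the osteoclast list was among those called without the arrays numbered 3. In bulk RNA fewer cells of a type and less RNA per cell cannot be told apart, and the part of other cells in the member values was not tested.

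Some markers of mesothelial and epithelial cells differed between the genotypes, in both directions. Of 7 tested, Epcam alone was called for KO minus WT, as higher (1.59, limma adjusted p = 0.047). In that comparison 5 were higher and 2 lower, Krt19 (mean 1.39 in KO, 3.01 in WT) and Upk3b (−7.43 and −4.93). In Het cells Krt8 was higher than in WT (3.36, limma adjusted p = 0.034) and Upk3b lower (−3.15, limma adjusted p = 0.0412). Arrays well above background were 4 KO, 3 Het and 1 WT for Epcam, 4, 4 and 1 for Krt8, and 2, 0 and 4 for Upk3b. The sizes of these differences thus rest on low signals in the lower group. Epcam passed the filter only through KO arrays and Upk3b only through WT arrays, so nothing is read from their calls. Of all tested probes 1.5% were called for KO minus WT and 1.09% for Het minus WT. Wt1 and Lrrn4 were well above background on 0 arrays of each genotype. The summed signal of the 9 markers was 1238% to 3566% of the 75th percentile in KO, 942% to 2290% in Het and 329% to 6585% in WT cells, with ranges that overlapped. The part of these markers in the member values was not tested.

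The genes most like each member over the 12 arrays were sought among 13668 named genes by Pearson's r, as a description. Where a member has 2 probes, only probe 1 was used. For Gpnmb they were Lrrc27 (r = 0.936, and 0.961 over the 9 arrays not numbered 3), Gap43 (0.917 and 0.956), a growth cone protein of neurons, the semaphorin and VEGF receptor Nrp1 (0.914 and 0.914), Ddx28 (0.913 and 0.900) and the secreted stanniocalcin Stc2 (0.904 and 0.960). Gap43 averaged −5.41 in KO, −2.16 in Het and −1.84 in WT cells. For Ctsk they were Heatr5a (0.958 and 0.965) and Kctd12b (0.947 and 0.982), and for Ctsc Htatip2 (0.936 and 0.951) and Cemip2 (0.931 and 0.941). For Ctsd the most like gene was Asah1, the lysosomal acid ceramidase (0.941 and 0.89), followed by Gal3st4 (0.922 and 0.833). Nhsl1 and Cds2 were most like Ctsl (0.962 and 0.956), Thbs4 and Agtr1a most like Ctsz (0.951 and 0.943), Slc39a8 and Bex4 most like Ctsh (0.945 and 0.941), and Spred1 and Hdac9 most like probe 1 of Ctsb (0.942 and 0.917), whose probes disagreed.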

How the data were processed

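Total RNA of 12 MEF samples was labelled with Cy3 (500 ng each, per the labels' protocols) and hybridised to 1-colour Agilent arrays of 45018 spots, 43379 of them not controls. Per the file headers and the submitters' processing notes, the authors extracted the spots with Agilent Feature Extraction 9.5, and the deposited processed intensity is on a linear scale, background-subtracted and not scaled between arrays. The deposited series table holds the same intensity (largest relative difference 0).

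From it, control and outlier spots were left out, log2 was taken, spots of a probe were averaged, and the 75th percentile of that array's non-control probes was subtracted. No member spot was left out. Of 41174 probes 25591 passed the background filter. A first run took the percentile over spots. It was replaced, with its results seen, by the percentile over probes that the written design called for, and it is kept as an alternative chosen after seeing the data. The genotype comparisons used limma 3.58.1 (R 4.3.3), tested on simulated data, in 1 fit with group means, with Benjamini-Hochberg adjustment over all tested probes. Names came from RefSeq for 22951 probes by accession, 6659 by symbol and 3109 by synonym, and 8455 kept the array's name. Genes of lists are given as up to 3 called per list and direction, otherwise from the 2 with the smallest adjusted p. Alternatives were normexp background correction (offset 50), quantile or no scaling, no filter, 1 probe per gene, the series table, slide or replicate number as a block, and arrays left out. Precision is limited by 4 arrays per genotype. Figures used matplotlib 3.10.9 in Python 3.11.15. The members and lists were chosen with earlier results of these data known. One item among the listed hydrolases is not reported here.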

Additional observations from a re-analysis of the deposited data

Results flagged for a closer look

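In 5 of 39 groups of 4 arrays (13 probes in 3 genotypes) the highest or lowest array lay further from the others, relative to the group's range, than Dixon's 95% critical value. The nominal rate is about 1 in 20 for separate groups, but these groups share the same arrays and some share a gene. The rate over all probes is not given here, and arrays numbered 3 stood apart over all probes, so nothing is read from the count. In 3 of the 5 the array was KO 3. Ctsk was at −1.73 there, against −5.71 to −5.39 on the other KO arrays, Ctsc was at −1.06, against −0.12 to −0.09, and Ctsb probe 2 was at −2.14, against −1.76 to −1.69. Ctsh was at −1.16 on Het 3, against 0.30 to 0.36 on the other Het arrays. Ctsl was at 5.99 on KO 2, against 6.24 to 6.28 on the other KO arrays.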

How the results depend on the processing

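The number of member probes called for KO minus WT was 1, and it was 2 with no filter on dim probes (both probes of Gpnmb), 0 with slide as a block, 0 with the replicate number as a block and 4 without the 3 arrays numbered 3. For Het minus WT it was 0, and 3 without those arrays. Leaving out 1 array at a time gave 1 to 3 calls for KO minus WT (3 without Het 3, 2 without WT 2), 0 to 2 for Het minus WT (2 without Het 3, 1 without WT 3) and 2 to 4 for KO minus Het. Probe 2 of Gpnmb is among the calls without Het 3 and without WT 2, where it passed the filter only through Het or WT arrays. The called differences, which are Gpnmb KO minus WT and the KO minus Het differences of Gpnmb, Ctsk and Ctsc, kept their sign in every alternative run. Differences without a call turned sign in at least 1 alternative for Gpnmb (Het minus WT), Ctsb, Ctsd, Ctsh and Ctsz. Same-numbered arrays of different genotypes correlated, in their deviations from group means, at −0.0931 to 0.399, with 5 of 10 pairs over 0.1, and only the arrays numbered 3 matched best with their own number, so the numbers were not taken as pairs. With the replicate block Gpnmb KO minus WT was −3.88 (limma adjusted p = 0.0604) and Ctsk KO minus Het −5.12 (0.07), both without a call. Over all probes, 383 calls for KO minus WT became 119 with no filter, 161 with normexp, 153 with no scaling, 72 with slide and 146 with number as a block, 4135 without the arrays numbered 3, and 68 (without KO 4) to 2397 (without WT 3) with 1 array left out. For Het minus WT 278 calls became 61, 58, 162 (28 higher and 134 lower, against 135 and 143), 58, 110, 2740, and 40 (without Het 4) to 2026 (without WT 3). For KO minus Het 204 calls became 87 with no filter, 88 with normexp, 107 with slide as a block, 2098 without the arrays numbered 3, and 50 (without KO 4) to 528 (without Het 3), and unscaled 171 of 209 were higher, against 131 of 204. The cause of these changes was not tested.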
